A study of Mus musculus with 6 samples.

Results

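The acute phase response genes were 10 genes, *Saa1*, *Saa2*, *Saa3*, *Orm1*, *Orm2*, *Hp*, *Hpx*, *Lcn2*, *Apcs* and *Socs3*, read on an Affymetrix array by 13 probe sets. They were taken by name: every probe set to which the platform annotation gives 1 symbol, equal to one of these, was a member. The whole table held 12393 genes on 22626 probe sets. The RNA came from liver cells of wild-type C57BL/6 mice, 3 weeks old, labelled as hepatocytes. Living cells for both groups took up a Hoechst dye and were separated by flow cytometry, on DNA content, into a diploid fraction and a tetraploid one, with 3 arrays each. No mutation, transgene or other agent is named for either group. Sample titles name them biological replicates, without stating if each is a separate animal, so the p-values rest on how these samples scatter, in which technical error may have a share. A cell of the diploid kind in G2 or mitosis has the DNA content of the tetraploid fraction.

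The acute phase response is the change in plasma proteins that the liver makes during infection or injury. Interleukin-6 binds its receptor on hepatocytes, gp130 and the JAK kinases switch on the transcription factor STAT3, and STAT3 acts with C/EBP factors and NF-kB on the genes of secreted proteins such as serum amyloid A, orosomucoid and haptoglobin. SOCS3 is induced by STAT3 and shuts the receptor down again, so it is the feedback gene of the pathway.

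In 9 of the 10 genes the mean was lower in tetraploid than in diploid cells, and the median log2 difference of the 10, tetraploid minus diploid, was -0.13. *Orm1* and *Saa1*, which encode orosomucoid and serum amyloid A, stood at -0.33 ± 0.08 and -0.36 ± 0.14 (SE, n = 3 per fraction), and *Socs3* was the one gene with a higher tetraploid mean. In the limma fit over 9295 genes, 0 of the 10 passed an adjusted p of 0.05. Over all genes the share that passed was also 0%, 52.2% had a lower tetraploid mean, and the median difference was -0.006. At an unadjusted p under 0.05 there were 2 of the 10, both lower, against 3.85% of all genes in that direction and 6.18% in either. In 3 of the 10, *Orm1*, *Hp* and *Hpx*, every tetraploid array was below every diploid array, against 7.08% of all genes. Leaving out 1 array left 8 lower means without diploid replicate 3 and 9 without any other. It left *Orm1* alone at an unadjusted p under 0.05 without diploid replicate 2, diploid replicate 3, tetraploid replicate 1 or tetraploid replicate 3. Members without overlap numbered 5 when tetraploid replicate 1 or 2 was left out. Neither share over all genes was counted in these smaller fits, and fewer arrays separate more easily. The median ran from -0.20 without diploid replicate 1 to -0.08 without tetraploid replicate 1, and was -0.08 without diploid replicate 2 and -0.09 without diploid replicate 3.

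**Figure D1:**
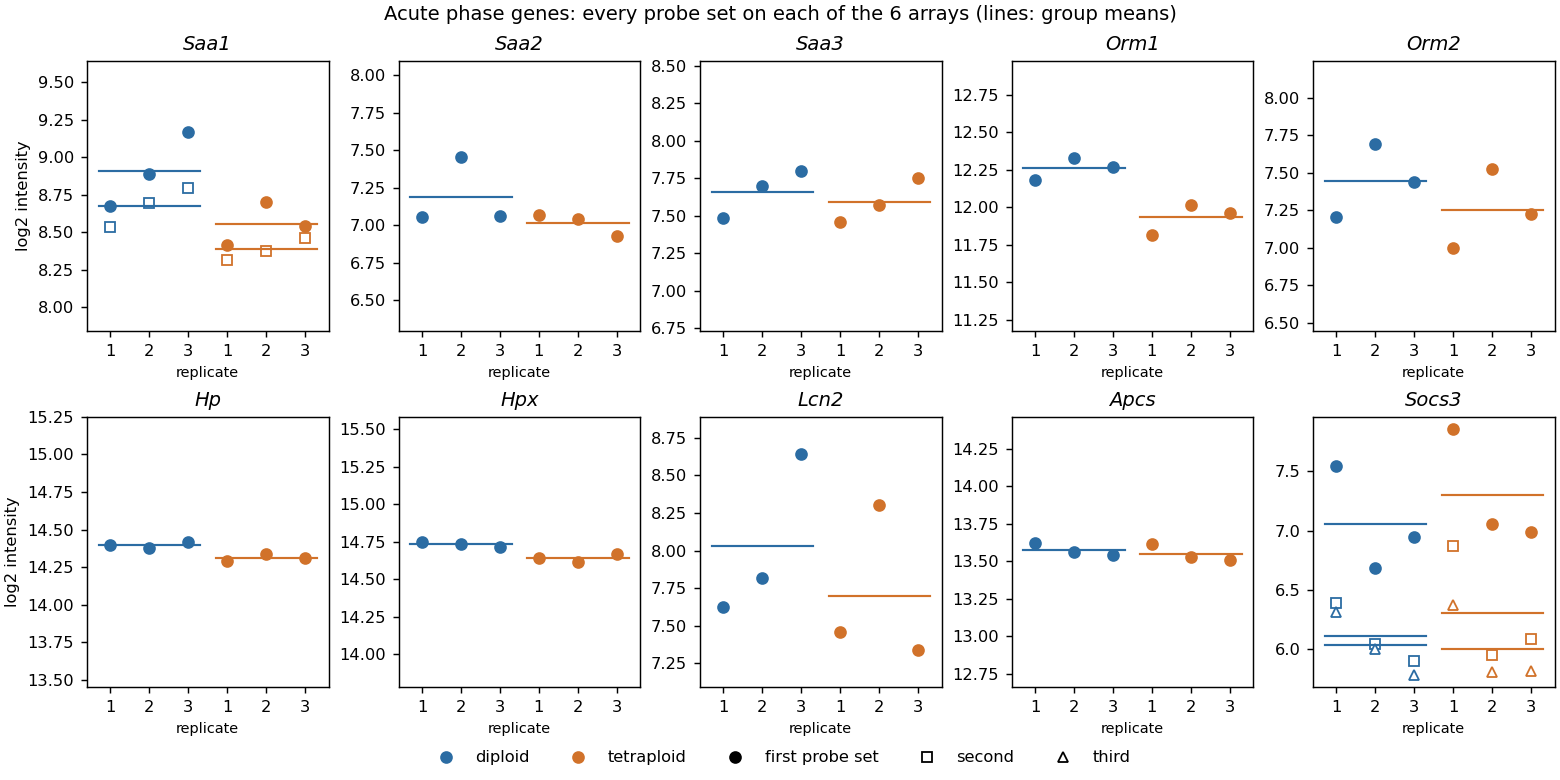
Log2 intensity (vertical axis, own range in each panel) of the 13 probe sets on the 3 diploid (blue) and 3 tetraploid (orange) arrays, with group means as lines; filled circles are the probe set with the highest mean and open symbols the others. *Orm1*, *Hp* and *Hpx* have no overlap between fractions, whereas *Lcn2* and *Socs3* spread over 1.31 and 1.17 log2 units within the 6 arrays.

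The serum amyloid A genes encode small apolipoproteins of high-density lipoprotein that rise steeply in inflammation. *Saa1* and *Saa2* are near copies on chromosome 7 (*Saa1* at 46740497 to 46743181, *Saa2* at 46751833 to 46754313 and *Saa3* at 46711998 to 46719615, RefSeq positions on GRCm38.p6). Over the 250 bases before a RefSeq transcription start of each gene, *Saa1* and *Saa2* were identical at 95.6% of 249 aligned bases. *Saa3* was identical to them at 59.4% and 61.9%. The *Saa1* start used lies inside the gene span given above, so most of its 250 bases are within that span. The *Saa2* start used is the first base of its span. The stretches below, from 250 to 202 bases before the starts used, are shown as an example of how alike the pair is. They were not chosen as probe targets. Capitals mark the bases that differ between them or have no partner in the alignment.

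Saa1 (chr7:46743182-46743230, minus strand): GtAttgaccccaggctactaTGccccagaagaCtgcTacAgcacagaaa
Saa2 (chr7:46751583-46751631, plus strand): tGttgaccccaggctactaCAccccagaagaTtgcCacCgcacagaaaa

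The probe sets of this pair cannot be taken as separate readings of separate genes. The second *Saa1* probe set, 1419075_s_at, carries the *Saa1* symbol in the platform annotation, but the transcript accession listed for it belongs to *Saa2* in RefSeq. The *Saa2* probe set, 1449326_x_at, lists that same transcript. The signals of 1419075_s_at and 1449326_x_at are therefore uncertain as to the gene. The first *Saa1* probe set, 1450788_at, lists a transcript that RefSeq gives to *Saa1*. It may still share signal with so close a copy, which was not tested.

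The *Saa1* probe set used for the gene, 1450788_at, had log2 intensities of 8.68, 8.89 and 9.17 in diploid replicates 1 to 3 and of 8.42, 8.70 and 8.55 in tetraploid replicates 1 to 3. The fractions overlapped only through the lowest diploid array, replicate 1, which fell below tetraploid replicate 2. The difference of -0.36 ± 0.14 is a tetraploid level 0.782 times the diploid one, and limma gave an unadjusted p of 0.0328 and an adjusted p of 0.779. Without diploid replicate 3 the difference was -0.23. The second probe set read 8.53, 8.69 and 8.80 in diploid and 8.32, 8.38 and 8.46 in tetraploid cells. Here the fractions did not overlap, as in 6.77% of all probe sets in this direction, and the difference was -0.29 ± 0.09 in the fit over all probe sets (limma, adjusted p = 0.658).

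*Saa2* read 7.05, 7.46 and 7.06 in diploid replicates 1 to 3 and 7.07, 7.04 and 6.93 in tetraploid replicates 1 to 3. Diploid replicate 2 stood apart from the other 5 arrays, which lay between 6.93 and 7.07, and the difference of -0.18 ± 0.12 was -0.05 without it. *Saa3*, the form that macrophages and other cells outside the liver parenchyma also make, lay between 7.46 and 7.80 on the 6 arrays. Its fractions overlapped almost fully, with a difference of -0.07 ± 0.11 and a 95% interval from -0.33 to 0.19.

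Orosomucoid, or alpha-1 acid glycoprotein, is a plasma carrier of drugs and lipids. *Orm1* read 12.18, 12.33 and 12.27 in diploid and 11.82, 12.02 and 11.96 in tetraploid replicates 1 to 3. All 3 tetraploid arrays were lower than all 3 diploid arrays, and the gap between the group means, -0.33 ± 0.08, was over the SD within either fraction (0.07 and 0.10, n = 3). This was a tetraploid level 0.797 times the diploid one, with a 95% interval of the log2 difference from -0.52 to -0.13. The unadjusted limma p was 0.00486, ranking 98 among 9295 genes, and the adjusted p was 0.460.

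*Orm2*, which lies beside *Orm1* on chromosome 4 (63362449 to 63365877, with *Orm1* at 63344556 to 63348163), read 7.20, 7.69 and 7.44 in diploid and 7.00, 7.52 and 7.23 in tetraploid replicates. Each fraction had its lowest array in replicate 1 and its highest in replicate 2, and the fractions overlapped. The difference was -0.20 ± 0.16, with an interval from -0.58 to 0.19, and it was -0.07 without diploid replicate 2 or tetraploid replicate 1. *Orm3*, the remaining gene of this cluster on the list of other acute phase proteins, differed by -0.24 ± 0.13 (limma, adjusted p = 0.839). The orosomucoid genes are close paralogs, so their probes may share signal.

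Haptoglobin (*Hp*) binds free haemoglobin and hemopexin (*Hpx*) binds free haem, and together they protect tissue from haemolysis. *Hp* read 14.40, 14.37 and 14.41 in diploid and 14.29, 14.34 and 14.31 in tetraploid replicates 1 to 3. *Hpx* read 14.75, 14.74 and 14.72 in diploid and 14.64, 14.62 and 14.67 in tetraploid replicates 1 to 3. In both genes the fractions were apart by little, without overlap: the differences were -0.08 ± 0.06 and -0.09 ± 0.06, each larger than the SD within a fraction, which was between 0.02 and 0.03.

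Limma draws the variance of each gene towards that of all genes, and its unadjusted p was 0.243 for *Hp* and 0.199 for *Hpx*. With a prior variance that follows the intensity, these became 0.0517 and 0.0289, with adjusted p-values of 0.844 and 0.825. Over all 14 alternatives the smallest adjusted p was 0.801 for *Hp* and 0.776 for *Hpx*. Both probe sets lay at the upper end of the scale, where the largest value in the table is 15.58 and equalising the arrays can compress a difference. Among the 100 brightest probe sets the median SD over the 6 arrays was 0.05, against 0.13 for all. *Apcs*, which encodes serum amyloid P, the main acute phase pentraxin of mice, also lay there, between 13.51 and 13.62. Its fractions overlapped, and the difference of -0.03 ± 0.07 had a 95% interval from -0.19 to 0.14.

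**Figure D2:**
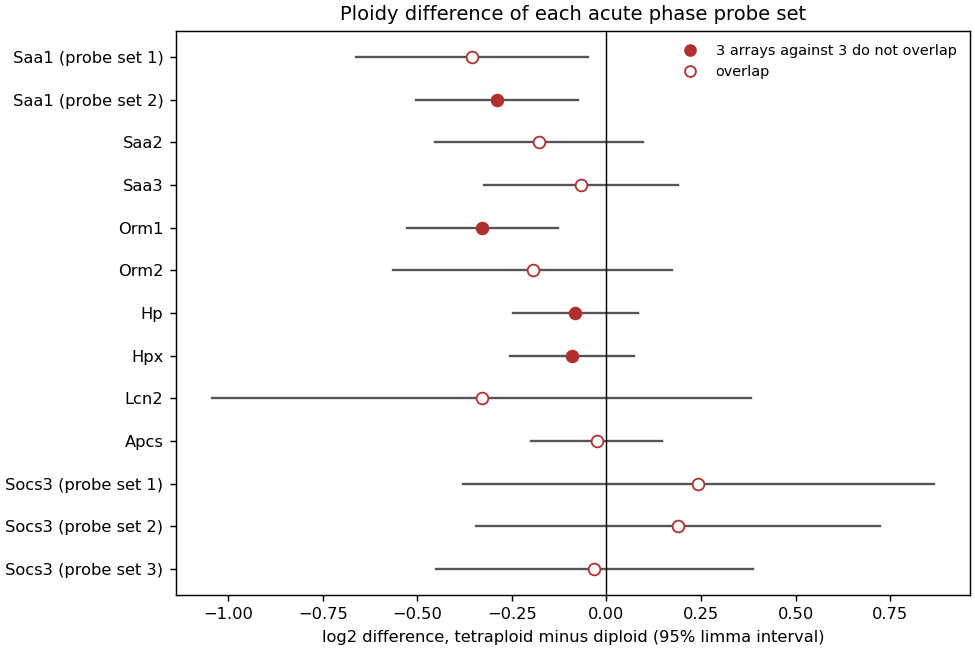
Log2 difference, tetraploid minus diploid (horizontal axis), of each of the 13 probe sets with its 95% interval from the limma fit over all 22626 probe sets; filled points mark probe sets whose fractions do not overlap. The *Saa1* and *Orm1* intervals lie below 0 before any adjustment, and the widest interval is that of *Lcn2*.

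*Lcn2* encodes lipocalin 2, which withholds iron from bacteria by binding their siderophores and is made by neutrophils as well as by stimulated hepatocytes. Its log2 intensity was 7.62, 7.82 and 8.64 in diploid replicates 1 to 3 and 7.46, 8.30 and 7.34 in tetraploid replicates 1 to 3. Diploid replicate 3 and tetraploid replicate 2 were high, and the other 4 arrays lay between 7.34 and 7.82. The difference of -0.33 ± 0.33 was about the size of its error in this fit, which takes the arrays as unpaired. Its interval was from -1.09 to 0.43, and it ran from -0.63 without tetraploid replicate 2 to -0.02 without diploid replicate 3. The SD of *Lcn2* over the 6 arrays, 0.51, was higher than that of 99.1% of the genes tested.

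*Socs3*, the feedback inhibitor, also varied more between arrays than between fractions. Its first probe set, 1455899_x_at, read 7.54, 6.69 and 6.95 in diploid and 7.86, 7.05 and 6.99 in tetraploid replicates 1 to 3. Replicate 1 was the highest array of each fraction, and the SD over the 6 arrays, 0.43, was above that of 98.4% of genes. The difference of 0.24 ± 0.28, with an interval from -0.42 to 0.90, became -0.04 without tetraploid replicate 1.

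The other *Socs3* probe sets gave the same high arrays. The second, 1456212_x_at, read 6.39 and 6.87 in replicate 1 of the diploid and tetraploid fractions and between 5.90 and 6.08 on the other 4 arrays. The third, 1416576_at, read 6.32 and 6.38 in replicate 1 and between 5.78 and 6.00 elsewhere. Their ploidy differences, 0.19 ± 0.23 and -0.03 ± 0.18 in the fit over all probe sets, had opposite signs, so no direction by ploidy can be given for *Socs3*.

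STAT3 binds palindromes of the form TTCNNNGAA. A RefSeq promoter, 250 bases before to 50 bases after the start on GRCm38.p6, was held for 8 of the 10 genes, all but *Orm1* and *Hp*. Read on both strands, 2 of the 8 contained TTCNNNGAA, as did 8.30% of all 32851 promoters in the table. They were *Socs3*, at 154 bases before the start used, and *Apcs*, at 244 bases before its own. The *Socs3* start used lies inside the RefSeq span of the gene, 117966079 to 117970336 on chromosome 11. The *Socs3* match is therefore within that span too. The 30 bases around each match are shown, with the match in capitals, since these were the only exact matches among the 8.

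Socs3 (chr11:117969501-117969530, minus strand): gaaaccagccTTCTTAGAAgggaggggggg
Apcs (chr1:172895275-172895304, minus strand): atcttcTTCTAGGAAagcacagggtcatga

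The pattern TTGCNNCAA, searched as a C/EBP motif, was in 0 of the 8 promoters and in 2.08% of all. It is not a palindrome, and no other form of a C/EBP site was searched, so sites of other forms would be missed. The NF-kB motif was in 0 of the 8 in both forms searched, a looser one held by 0.411% of all promoters and a stricter case of it held by 0.155%. These counts say only that the exact letters are or are not in these windows.

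Each array was then described over all 10 genes. The mean deviation of the 10 genes from their own averages was -0.002, 0.07 and 0.14 log2 units on diploid replicates 1 to 3, and -0.09, 0.01 and -0.13 on tetraploid replicates 1 to 3. The range of the fractions overlapped, because tetraploid replicate 2 stood above diploid replicate 1. On diploid replicate 2 there were 8 of the 10 genes above their own mean and on diploid replicate 3 there were 7, against 5 on diploid replicate 1, 2 on each of tetraploid replicates 1 and 2, and 1 on tetraploid replicate 3. Tetraploid replicate 1 was the lowest array for 5 of the 10 genes and the highest for *Socs3* alone.

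The genes outside the list whose centred profile came nearest to this mean profile, by root mean square difference over the 6 arrays, were *Pigf*, of GPI anchor synthesis, at 0.025 log2 units, *Hgsnat*, a lysosomal acetyltransferase, at 0.027, and *Rnaseh1*, which degrades RNA paired with DNA, at 0.030. For *Lcn2*, the member with the largest spread, they were the transcription factor gene *Cux2* at 0.09, the phosphatase gene *Dusp14* at 0.15 and *Baiap2l1*, an adaptor at the actin cortex, at 0.17. With 9295 genes and 6 arrays, near profiles are easily found, and these are a description.

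The signalling genes upstream had ploidy differences in both directions. Of 20 tested genes of the IL-6 receptor and JAK-STAT pathway, *Socs3* not among them, 12 had a higher and 8 a lower tetraploid mean, with a median difference of 0.04 and 0 past the adjusted threshold in either direction. *Jak1*, a kinase on gp130, differed by 0.12 ± 0.07, *Lifr*, the leukaemia inhibitory factor receptor, by 0.30 ± 0.19 and *Stat5a* by 0.24 ± 0.19. In the other direction *Ptpn6* and *Ptpn11*, which encode tyrosine phosphatases, differed by -0.09 ± 0.07 and -0.09 ± 0.09, and *Cish*, of the SOCS family, by -0.14 ± 0.13. Of the 20 only *Ptpn6* had fractions that did not overlap, against 7.08% of all genes in that direction. *Stat3* itself, at 0.06 ± 0.08, and *Il6st*, which encodes gp130, at -0.03 ± 0.12, were named after their values were seen. *Il6* was among the dim genes left out, at a mean log2 intensity of 3.87.

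Of 15 tested regulators of acute phase genes, 8 had a higher and 7 a lower tetraploid mean, their median difference was 0.004 and 0 passed the threshold. The IL-1 receptor subunit gene *Il1rap* differed by 0.08 ± 0.08, the NF-kB cofactor gene *Nfkbiz* by 0.23 ± 0.21 and *Cebpd*, a C/EBP factor induced in inflammation, by 0.23 ± 0.55. *Myd88*, the adaptor of the IL-1 receptor, differed by -0.07 ± 0.09, the TNF receptor gene *Tnfrsf1a* by -0.05 ± 0.08 and the NF-kB subunit gene *Rela* by -0.06 ± 0.12.

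Some genes of these lists varied widely between arrays of 1 fraction. The 8 with the largest SD among the 80 tested genes of the pathway lists, chosen after their values were seen, were *Fkbp5*, *Cebpd*, *Mt2*, *Il6ra*, *Il1r1*, *Mt1*, *Bcl3* and *Cebpb*. *Fkbp5*, a co-chaperone induced by glucocorticoids, read 8.42, 9.52 and 11.05 in diploid and 8.61, 10.97 and 9.41 in tetraploid replicates 1 to 3. *Cebpd* read 6.25, 7.28 and 8.24 in diploid and 6.68, 8.34 and 7.44 in tetraploid replicates 1 to 3. *Il6ra*, the IL-6 receptor itself, read 9.03, 9.74 and 10.34 in diploid and 9.09, 10.51 and 9.80 in tetraploid replicates 1 to 3.

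Diploid replicate 3 and tetraploid replicate 2 were the highest pair of arrays for all of these 8 but *Bcl3*, where they were the lowest pair, and they were also the highest for *Lcn2*. *Bcl3*, an NF-kB cofactor, read 7.62, 7.49 and 6.63 in diploid and 7.56, 6.40 and 7.44 in tetraploid replicates 1 to 3. Over the 8 genes the ploidy differences were small beside this spread, from -0.12 ± 0.36 for *Bcl3* to 0.23 ± 0.55 for *Cebpd*. The part of this array-to-array variation in the values of *Lcn2*, *Socs3* and *Saa1* was not tested.

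**Figure D3:**
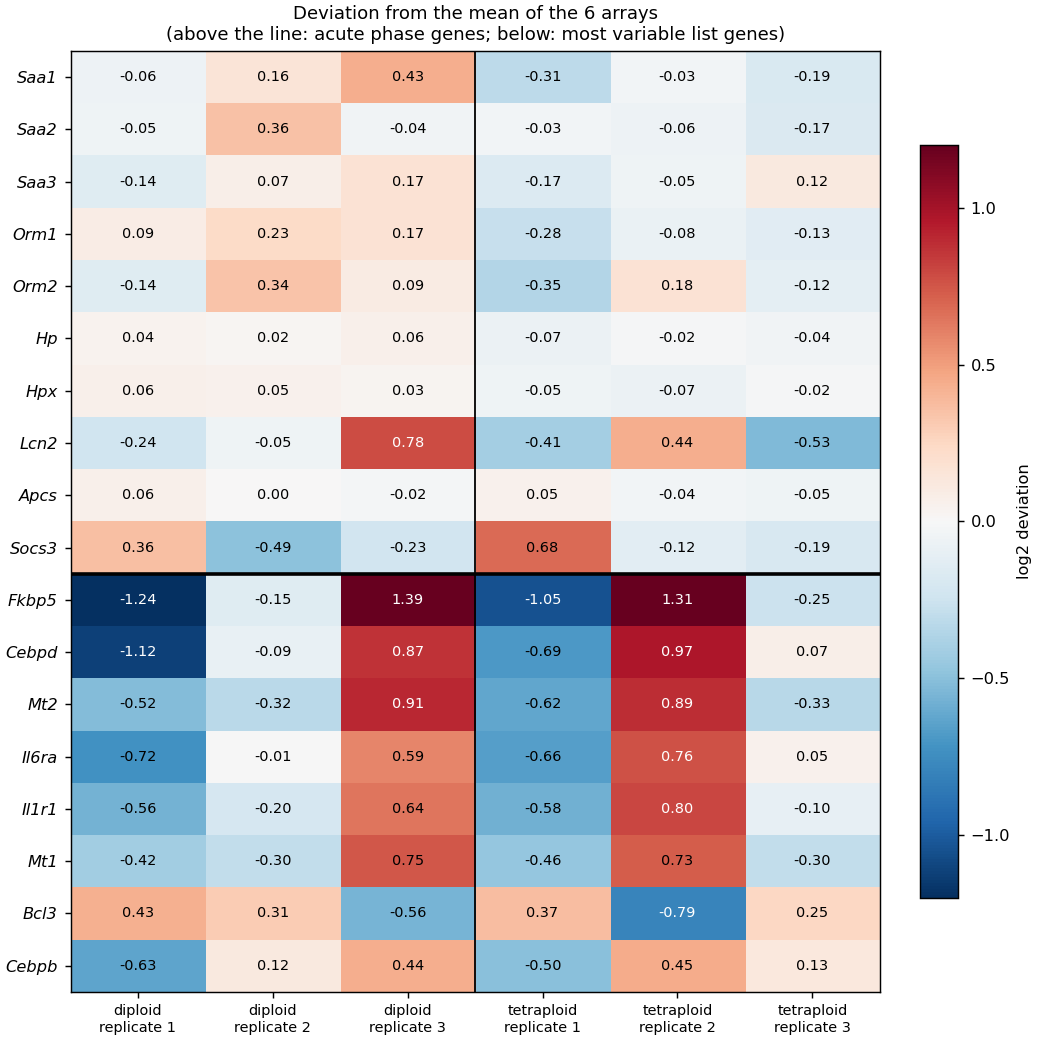
Log2 deviation of each gene from its mean over the 6 arrays (colour and printed value), for the 10 acute phase genes above the line and the 8 most variable genes of the pathway lists below it. Diploid replicate 3 and tetraploid replicate 2 have the highest values of *Lcn2* (0.78 and 0.44) and *Fkbp5* (1.39 and 1.31), and *Socs3* is highest in replicate 1 of each fraction (0.36 and 0.68).

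Of 22 other positive acute phase proteins tested, 15 had a lower and 7 a higher tetraploid mean, the median was -0.03, and 0 passed the adjusted threshold. *Lrg1*, a leucine-rich plasma glycoprotein, differed by -0.19 ± 0.07 (limma, adjusted p = 0.779). Its fractions did not overlap, as in 7.08% of all genes in that direction. *Itih3*, a heavy chain of the inter-alpha inhibitors, differed by -0.13 ± 0.08. *Orm3* is given above. Those with the smallest p in the other direction were *Fgl1*, fibrinogen-like protein, at 0.09 ± 0.08, *Il1rn*, the IL-1 receptor antagonist, at 0.12 ± 0.13 and ceruloplasmin (*Cp*) at 0.04 ± 0.08.

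Negative acute phase proteins, whose synthesis falls in inflammation, were evenly divided, with 6 of 11 higher, 5 lower, a median of 0.010 and 0 past the threshold. The cytochrome P450 gene *Cyp2c29* differed by 0.26 ± 0.11 (limma, adjusted p = 0.794), the corticosteroid carrier *Serpina6* by 0.15 ± 0.09 and *Cyp3a11* by 0.08 ± 0.08. The fractions of *Cyp2c29* did not overlap, as in 485 of all 9295 genes in the higher direction. Lower means were read for *Igfals*, the acid-labile subunit of the IGF complex, at -0.15 ± 0.13, *Igf1* at -0.05 ± 0.07 and the retinol carrier *Rbp4* at -0.05 ± 0.07. The fractions of *Igf1* did not overlap, as in 7.08% of all genes in the lower direction. Both *Cyp* genes have close paralogs that their probes may also read.

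**Figure D4:**
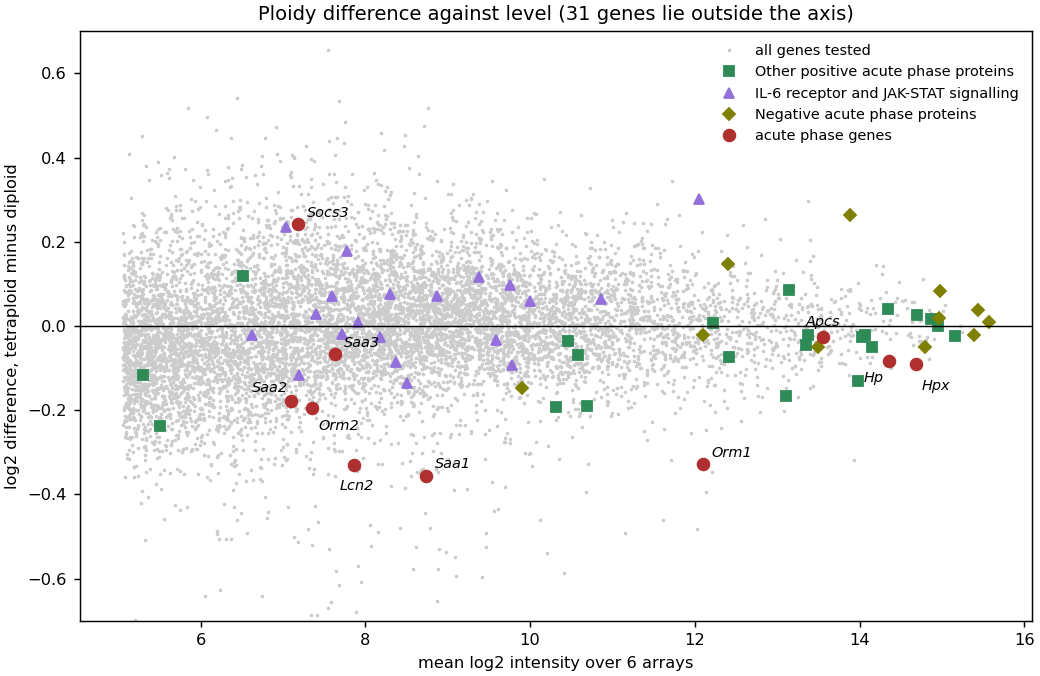
Log2 difference, tetraploid minus diploid (vertical axis), against mean log2 intensity over the 6 arrays (horizontal axis) for the 9295 genes tested (grey), the 10 acute phase genes (red) and 3 related lists; 31 genes lie beyond the vertical axis. All acute phase genes but *Socs3* lie below 0, and differences narrow towards the upper end of the intensity scale.

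Immediate early genes, which respond within minutes to the isolation of cells, are given because *Socs3* is quickly induced as well. Of 13 tested, 10 had a higher and 3 a lower tetraploid mean, with a median of 0.09 and 0 past the threshold. *Klf6* differed by 0.27 ± 0.14, *Ier3* by 0.16 ± 0.09, *Jun* by 0.15 ± 0.13, *Fos* by -0.13 ± 0.13, *Dusp1* by -0.06 ± 0.24 and *Btg2* by -0.009 ± 0.097. The mean deviation of the 13 genes was lowest on diploid replicate 2, at -0.30, which was also the lowest array for the first *Socs3* probe set. It was 0.11 and 0.07 on diploid replicates 1 and 3, and 0.16, 0.09 and -0.14 on tetraploid replicates 1 to 3. The part of cell isolation in the *Socs3* values was not tested.

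Markers of other cells were read because *Lcn2* and *Hp* are also made by neutrophils and *Saa3* by macrophages. Of 12 neutrophil markers with a probe set, 6 were above the dimness limit of 5.06, *S100a9*, *Ngp*, *Elane*, *Prtn3*, *Csf3r* and *Mmp9*, with means from 5.10 to 6.21, and *S100a8* was below it at 4.76. The summed intensity of the 12 was 428 to 467 on diploid and 431 to 451 on tetraploid arrays. *Ngp*, a neutrophil granule protein, differed by -0.26 ± 0.08 without overlap (limma, adjusted p = 0.648), and *Prtn3*, which encodes a granule protease, by 0.13 ± 0.07, also without overlap. The median of the 6 was -0.05.

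Of 12 macrophage and Kupffer cell markers, 7 passed the dimness limit, *Clec4f*, *Cd5l*, *Adgre1*, *Marco*, *C1qa*, *Csf1r* and *Lyz2*, with means from 5.18 to 6.82 and differences from -0.15 to 0.07. Their median was -0.09, and the 12 summed to 528 to 596 on diploid and 480 to 565 on tetraploid arrays. The part of these cells in the acute phase values was not tested, and in RNA of a sorted fraction fewer cells of a kind and less RNA per cell cannot be told apart.

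The labelled cell type was checked by its markers. For hepatocytes 9 of 9 with a probe set were above the dimness limit, and the summed intensity was 244614 to 258978 on diploid and 247070 to 258584 on tetraploid arrays, with *Alb*, at 15.57, the brightest of them. Endothelial markers summed to 944 to 1073 on diploid and 1045 to 1236 on tetraploid arrays. Of 8 tested, 6 had a higher and 2 a lower tetraploid mean, with a median difference of 0.23, and *Fcgr2b*, an Fc receptor of sinusoidal cells, differed by 0.34 ± 0.13. At an unadjusted limma p under 0.05 there were 3 of the 8, all higher, against 216 of all 9295 genes in that direction. Fractions did not overlap in 2 of the 8, both higher, against 485 of all genes, and 0 passed the adjusted threshold. The part of endothelial cells in the acute phase values was not tested. Stellate (*Reln*, 0.12 ± 0.08), cholangiocyte (*Sox9*, -0.09 ± 0.08), lymphocyte (*Cd3e*, -0.21 ± 0.10) and erythroid markers (*Alas2*, 0.12 ± 0.10) had 4 of 7, 2 of 5, 1 of 6 and 1 of 4 genes above the limit. Of the stellate genes tested 3 were higher and 1 lower, and of the cholangiocyte genes 1 was higher and 1 lower. Stellate markers summed to 760 to 867 on diploid and 839 to 874 on tetraploid arrays. For cholangiocytes the sums were 165 to 188 and 165 to 167, and for erythroid cells 164 to 183 and 173 to 187. Lymphocyte sums, 189 to 202 and 164 to 184, did not overlap, nor did *Cd3e*. The part of these cells was not tested. The 3' minus 5' log2 signal of the actin control, a reading of RNA integrity, was 1.59 to 1.71 on diploid and 1.56 to 1.69 on tetraploid arrays. Of all 9295 genes, 0 passed the adjusted limma threshold and 574 had an unadjusted p under 0.05.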

How the data were processed

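Total RNA from 3 diploid and 3 tetraploid hepatocyte samples was hybridised to 6 Affymetrix arrays. The deposited values are intensities per probe set on a linear scale, made with RMA per the submitters' processing notes; the version and any filters: not given in the sources used here. RMA equalises the arrays, so a difference in total RNA per cell is removed, and every difference is relative to other transcripts. The linear scale was read from array medians of 86.4 to 89.2.

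Intensities were converted to log2 and 64 controls left out. The platform annotation gave 20380 probe sets 1 symbol, 691 several and 1555 none; 20351 matched RefSeq (GRCm38.p6) by Entrez identifier and 0 symbols changed. Each of 12393 genes took its probe set with the highest mean, and the dimmest 25% of genes, under a log2 mean of 5.06, were left out, leaving 9295. All 10 members were kept. The fractions were compared by the moderated linear model of limma (3.58.1, under R 4.3.3), two-sided, with ploidy as the factor, with Benjamini-Hochberg adjustment over all genes, or over all 22626 probe sets for values of single probe sets; ± is the SE of the fit unless named SD. The number of arrays limits the precision, with a median SE of 0.095. The procedure was tested on simulated data with independent errors and added differences larger than that of any member. That test says nothing on differences as small as theirs. The planned comparison of protein sequences was not made; promoters from RefSeq were compared by global alignment.

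The members and lists were chosen with earlier results of these data known. Named are all members, up to 3 genes per direction and list with the smallest p, the nearest profiles, the brightest marker of each cell type, and the macrophage and neutrophil markers above the dimness limit; genes from outside this rule are marked. Alternatives covered the dim filter, probe choice, log offset, array weights, variance trend, array centring, a replicate block and leaving out each array.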

Additional observations from a re-analysis of the deposited data

How the results depend on the processing

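The 10 member differences were recomputed under 14 alternatives, giving 140 values, of which 0 passed the adjusted limma threshold (smallest adjusted p = 0.285, for *Orm1* with a variance trend, whose values ran up to 0.878) and 137 kept their direction. The 3 that turned came from leaving out 1 array: *Saa3* at 0.0032 without diploid replicate 3 and 0.00042 without tetraploid replicate 1, and *Socs3* at -0.036 without tetraploid replicate 1. Leaving out each array in turn gave ranges of -0.15 to 0.0032 for *Saa3*, -0.036 to 0.48 for *Socs3*, -0.37 to -0.27 for *Orm1* and -0.47 to -0.23 for *Saa1*. The member median ran from -0.20 to -0.080 over these 6 fits, 8 or 9 members had a lower tetraploid mean and 3 to 5 did not overlap. The share of all genes without overlap was not counted in these fits, where fewer arrays separate more easily. These counts of members were added as results after seeing the data. Genes past the threshold numbered 0 to 1, the 1 without tetraploid replicate 1; the smaller fits test fewer arrays.

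With the replicate number as a block, 9 genes passed the threshold, 0 of them members. An unadjusted limma p under 0.05 was reached by 4 members, *Saa1*, *Orm1*, *Orm2* and *Socs3*, against 2 without the block. The share of all genes at that limit was not counted with the block, so this rise has no background to be read against. The labels do not say that equal numbers share an animal or day, and the data do not show it. Across genes, deviations from the group means correlated at 0.57 between both replicates 1, but at -0.20 between replicates 2 and -0.20 between replicates 3. Not every sample correlated best with its own number, since diploid replicate 3 with tetraploid replicate 2 gave 0.69 and diploid replicate 2 with tetraploid replicate 3 gave 0.38. Arrays of different numbers may therefore share a source, which the labels do not settle, and no such pairing was fitted. The block changed the call of no member. Signal over background may limit dim members, and the upper end of the scale may limit *Hp*, *Hpx* and *Apcs*.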
